A study of Mus musculus with 8 samples.

Results

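The neuronal and neuroendocrine genes followed here are Calca, Chga, Uchl1, Tubb3, Nefl, Stmn2, Gap43 and Elavl3, and their members are all probe sets that the array annotation pairs with exactly 1 of these symbols. On each of the 2 array types used in the series, 7 of the 8 genes had such a probe set. They made 11 of 45037 probe sets, or 7 of 18193 named genes, on the array used for lungs of embryonic stage E18.5, and 11 of 12422 probe sets, or 7 of 8251 named genes, on the older array used for E11.5 tissue. Neither annotation paired a probe set with Calca alone, so Calca (chr7:114625981-114636910 in the RefSeq annotation of GRCm38.p6, used for all gene positions) was not analysed here.

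The series asked how misexpression of MIA, a small secreted protein, alters gene expression in the late embryonic mouse lung, and which genes differ between early lung and trachea. The MIA bitransgenic group held lungs of 3 double transgenic FVB/N embryos at E18.5, labelled as SP-C/MIA overexpressors, and the control group held lungs of 3 single transgenic FVB/N littermates at E18.5. The labels do not state which transgene the controls carried. SP-C is surfactant protein C, whose promoter is used to direct transgenes to distal lung epithelium. Lung and trachea of FVB/N embryos at E11.5 were measured on 1 array each, with no genetic change named. Nothing states which samples shared a litter, or whether an array held RNA of more than 1 embryo, so p-values measure the spread between these samples alone, which may be technical.

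Pulmonary neuroendocrine cells are rare airway epithelial cells, single or in clusters called neuroepithelial bodies, that store amines and peptides such as calcitonin gene-related peptide in dense-core granules and are contacted by nerves. The nerves of the trachea and lung come from vagal and sympathetic fibres and from neural crest cells that form ganglia beside the airways. Several genes used to mark neuroendocrine cells, Uchl1 and Chga among them, are also made by neurons, so a whole-tissue array cannot assign their signal to 1 cell type. In whole tissue, fewer cells of a type and less RNA per cell cannot be told apart.

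The values were MAS5 signals, a linear intensity for each probe set. Arrays are numbered here within each group in the order the series lists them, which differs from the numbers in the sample titles. An equal number in the 2 groups does not mark a pair. The median signal of the E18.5 arrays ran from 421 to 464 in bitransgenic lungs and from 415 to 460 in control lungs, and was highest on bitransgenic array 3 and control array 3. Those arrays also had the lowest mean correlations of log2 values with the other arrays, 0.962 and 0.954, a description across genes. Mia itself had 31400, 42670 and 41550 in bitransgenic lungs, against 1071, 1070 and 734 in control lungs, so the arrays matched their labels. As a check of the tissue, the lung lineage gene Nkx2-1 and the type II cell gene Sftpc were measured in all 6 lungs, with means of 445 and 85320 in bitransgenic lungs and of 405 and 84710 in control lungs. Other lung epithelial genes did not keep to this pattern, as given with the markers of other tissues. The 3' to 5' signal ratio of Actb, a sign of RNA quality, was 1.65, 1.51 and 1.61 in bitransgenic lungs, against 1.501, 1.465 and 1.285 in control lungs, so that every bitransgenic value lay above every control value. That gap was narrow, at 1.506 on bitransgenic 2 and 1.501 on control 1. The same ratio of Gapdh was 0.9963, 0.9209 and 1.079 in bitransgenic lungs, against 0.9206, 0.921 and 0.7814 in control lungs, with overlapping groups. The part of the Actb ratio in the differences given below was not tested beyond a fit that holds it as a covariate.

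None of the neuronal and neuroendocrine genes measured above the filter passed the adjusted test between MIA bitransgenic and control lungs at E18.5. The filter kept probe sets whose mean log2 value lay at or above the 40th percentile of the array, a signal of about 251. It passed 4 of the 11 member probe sets, from Uchl1, Stmn2 and Gap43. Of these 4, 0 passed limma's adjusted threshold of 0.05, where 0.444% of all 27022 probe sets tested did (0.163% higher and 0.281% lower), and 1 of 4 had an unadjusted p under 0.05, where 9.57% of all did.

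Uchl1, which encodes a ubiquitin hydrolase (PGP9.5) that is abundant in neurons and neuroendocrine cells, had overlapping values in the groups (gene at chr5:66676121-66687234). Its signal was 300, 322 and 531 in bitransgenic lungs, against 224, 333 and 503 in control lungs. The values overlapped throughout, and array 3 was the highest in each group. Its log2 change was 0.11 (SE 0.29, limma adjusted p = 0.942, n = 3 per group), with a 95% interval from -0.52 to 0.75. Leaving out control 1 or bitransgenic 3 gave -0.11 and -0.098. Without both arrays numbered 3 the means were 311 in bitransgenic lungs and 278 in control lungs.

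Stmn2 encodes SCG10, a stathmin-like protein that regulates microtubules in growing axons, and its 2 probe sets gave different changes (gene at chr3:8509527-8561604). Probe set 1423281_at read 488, 628 and 680 in bitransgenic lungs, against 682, 1102 and 1366 in control lungs. All 3 bitransgenic values lay below all 3 control values, by a narrow gap between bitransgenic 3 and control 1. Its log2 change was -0.69 (SE 0.24, limma adjusted p = 0.388, n = 3 per group), with a 95% interval from -1.23 to -0.15 that is not adjusted for the number of probe sets. It was the only member probe set above the filter whose groups did not overlap, where 16.6% of all probe sets tested had groups that did not overlap, 9.29% upwards and 7.30% downwards. Probe set 1423280_at, designed from the same source sequence, read 616, 489 and 828 in bitransgenic lungs, against 537, 539 and 992 in control lungs. Here the groups overlapped, and the log2 change was -0.061 (SE 0.26, limma adjusted p = 0.967, n = 3 per group).

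The size of the Stmn2 difference varied with the arrays and the model. For 1423281_at a fit that also held the Actb ratio gave a log2 change of -0.21 (limma adjusted p = 0.94). Array weights gave -0.79 and moved it past the threshold (limma adjusted p = 0.0117), in a fit that called 3034 of all probe sets. Without both arrays numbered 3 it was -0.58 (limma adjusted p = 0.357), and over 19 alternatives its adjusted p ran from 0.0117 to 0.94.

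Gap43, which encodes a membrane protein of growth cones, had a lower mean in bitransgenic lungs without passing the test (gene at chr16:42248552-42340651). Its signal was 462, 698 and 536 in bitransgenic lungs, against 720, 894 and 623 in control lungs. Bitransgenic 2 lay among the controls, and no bitransgenic value lay above all of them. Its log2 change was -0.35 (SE 0.20, limma adjusted p = 0.64, n = 3 per group), with a 95% interval from -0.81 to 0.098. It stayed negative in all 18 alternatives that kept the probe set, from -0.51 to -0.23, and passed in none of them.

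**Figure D1:**
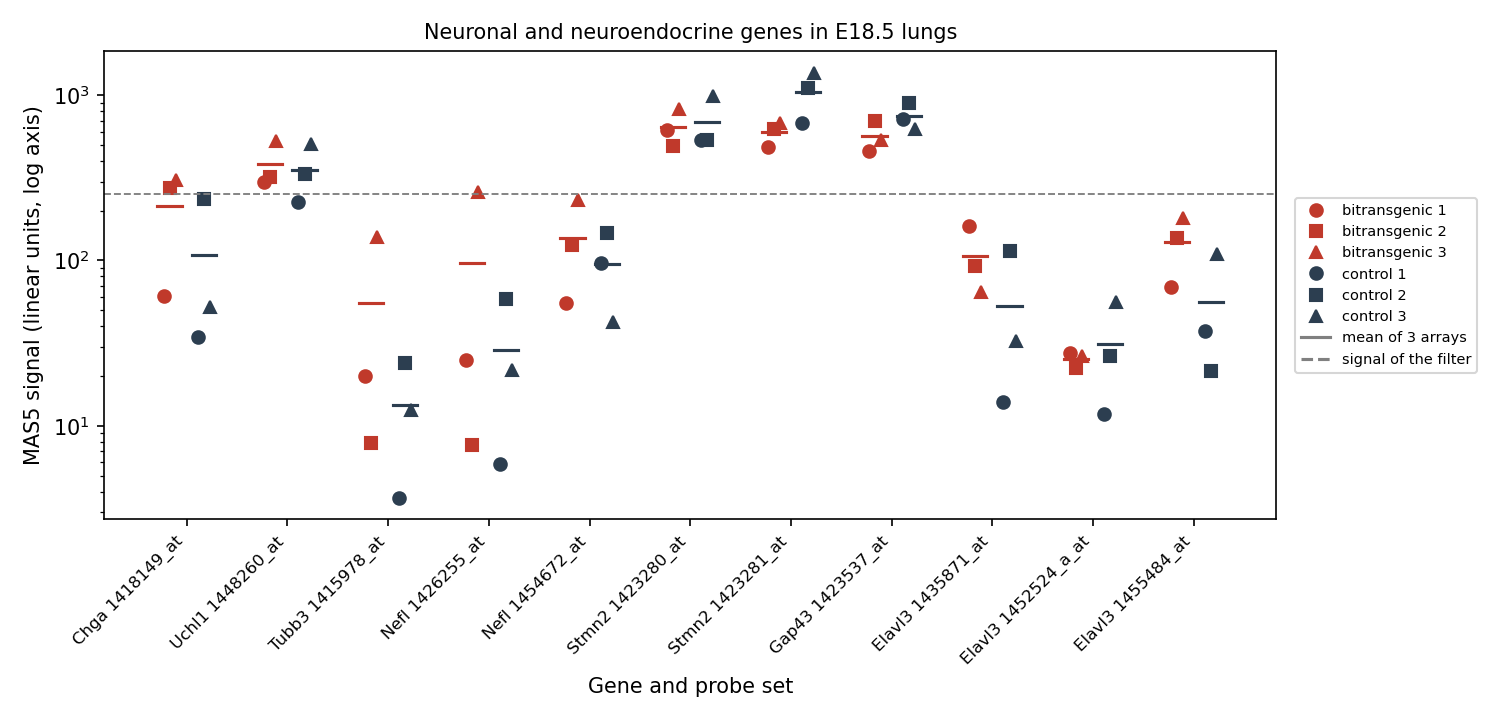
Signal of the 11 member probe sets on the 6 E18.5 arrays (log axis, MAS5 units), with bitransgenic lungs left of control lungs, 1 symbol per array and a bar at the mean of 3. The 4 probe sets of Uchl1, Stmn2 and Gap43 lie about or above the dashed filter signal of 251, and the 7 of Chga, Tubb3, Nefl and Elavl3 mostly below it.

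The remaining 7 member probe sets lay below the filter, with signals between 3.67 and 305. Chga, at chr12:102554941-102565027, encodes chromogranin A, a core protein of dense-core granules. It had 61.0, 273 and 305 in bitransgenic lungs, against 34.6, 236 and 52.1 in control lungs. On 2 of the 3 bitransgenic arrays its signal exceeded every control, and bitransgenic 1 lay within the control range. In a fit with no filter the log2 change of Chga was 0.65 with an SE of 0.47 (limma adjusted p = 0.808, n = 3 per group).

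Tubb3, at chr8:123411553-123422015, is the class III beta-tubulin of neurons. It had 19.9, 7.82 and 138 in bitransgenic lungs, against 3.67, 24.0 and 12.4 in control lungs. The higher bitransgenic mean came from array 3 alone, since the means of the other arrays were 13.9 in bitransgenic and 13.8 in control lungs. Nefl, at chr14:68083863-68089095, is the light neurofilament chain of axons. It had 25.1, 7.61 and 259 in bitransgenic lungs on probe set 1426255_at, against 5.89, 58.6 and 21.7 in control lungs. On its other probe set, 1454672_at, Nefl had 55.2, 124 and 233 in bitransgenic lungs, against 96.7, 147 and 42.2 in control lungs. For both Nefl probe sets the bitransgenic mean without array 3 lay below the control mean without array 3, at 16.4 against 32.3 and at 89.4 against 122.

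Elavl3 encodes the neuronal RNA-binding protein HuC, lies at chr9:22015005-22052146 and had 3 probe sets. On 1455484_at, the one with the largest difference, it read 68.9, 137 and 181 in bitransgenic lungs, against 37.5, 21.3 and 109 in control lungs. On 1435871_at it read 161, 92.5 and 64.8 in bitransgenic lungs, against 14.0, 114 and 32.3 in control lungs, and on 1452524_a_at the 6 arrays lay between 11.8 and 55.7. Without a filter the log2 changes were 0.61, 0.50 and -0.057 (limma adjusted p = 0.698, 0.77 and 0.975, n = 3 per group).

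Of the 7 probe sets below the filter, 6 had a higher mean in bitransgenic lungs, and 5 did without both arrays numbered 3. In none of the 7 did the groups stand clear of each other, and the smallest unadjusted p in the fit with no filter was 0.0764. The matching shares of all probe sets below the filter were not computed. These counts of direction and overlap are therefore not read as a result about the members. Bitransgenic array 3 gave the highest signal for 5 of these 7, and for 31.9% of all probe sets below the filter. Bitransgenic array 3 was also the highest of the 6 for 27.4% of all probe sets.

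Among genes around the members, 2 of the neuroendocrine list fell in bitransgenic lungs, Dlk1 and Ddc. The list held 18 genes besides the members, with 9 above the filter, of which 0 rose, 2 fell and 7 did not pass. By sign alone 4 changes were positive and 5 negative. Rab3c, which did not pass, read 376, 286 and 448 in bitransgenic lungs, against 212, 257 and 78.1 in control lungs. Its groups did not overlap, at a log2 change of 0.82 (limma adjusted p = 0.428). Rab3c falls outside the rule for naming and was picked with its values in view. Of all 12625 genes tested, each at its brightest probe set, 0.594% passed, 0.214% higher and 0.380% lower. The lists were chosen with earlier results of these data known, so these shares are a description and not a test of the list. Neither Dlk1 nor Ddc is restricted to neuroendocrine cells. Dlk1, an imprinted gene for a Notch ligand-like membrane protein, is widely made in embryonic mesenchyme, and Ddc, the decarboxylase that makes dopamine and serotonin, is also made outside the nervous system.

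Ddc read 843, 1027 and 640 in bitransgenic lungs, against 2976, 2801 and 2678 in control lungs. All bitransgenic values lay far below the controls, whose values were close together. Its log2 change was -1.67 (SE 0.18, limma adjusted p = 0.00403, n = 3 per group), while a fit holding the Actb ratio gave -1.60 and did not pass (limma adjusted p = 0.159). Its other probe set lay below the filter, at 22 to 34.8 in bitransgenic and 35.5 to 44.1 in control lungs. Dlk1 read 10370, 11190 and 13770 in bitransgenic lungs, against 41650, 44490 and 69380 in control lungs. These groups were also well separated, and array 3 was the highest in each. Its log2 change was -2.10 (SE 0.20, limma adjusted p = 0.00158, n = 3 per group), and a further Dlk1 probe set had -1.35 (limma adjusted p = 0.0139). For Dlk1 a fit holding the Actb ratio gave -1.69 (limma adjusted p = 0.0499), and without both arrays numbered 3 it was -1.99 (limma adjusted p = 2.9e-05).

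Other genes of amine synthesis and storage did not pass the threshold. Slc18a1, the vesicular amine transporter of endocrine cells, read 369, 284 and 595 in bitransgenic lungs, against 715, 716 and 743 in control lungs. Its groups did not overlap, at a log2 change of -0.74 (SE 0.23, limma adjusted p = 0.333, n = 3 per group). Other Slc18a1 probe sets lay below the filter with overlapping groups, at log2 changes of -0.35 and 0.43 in the fit with no filter. Pnmt, the enzyme that turns noradrenaline into adrenaline, read 315, 273 and 160 in bitransgenic lungs, against 561, 630 and 660 in control lungs. It was likewise lower on every bitransgenic array, at a log2 change of -1.09 (SE 0.23, limma adjusted p = 0.101, n = 3 per group).

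Upstream and neighbouring enzymes of the same pathways lay below the filter with overlapping groups. Th, which makes the dopamine precursor, averaged 197 ± 48.1 in bitransgenic and 211 ± 46.2 in control lungs (SD, n = 3 each). Dbh, which makes noradrenaline, averaged 234 ± 142 in bitransgenic and 282 ± 95.3 in control lungs (SD, n = 3 each). Tph1, the first enzyme of serotonin synthesis, averaged 96.8 ± 58.5 in bitransgenic and 102 ± 41.3 in control lungs (SD, n = 3 each), and Slc18a2, the neuronal vesicular amine transporter, 218 ± 34.6 and 238 ± 54.7 (SD, n = 3 each).

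**Figure D2:**
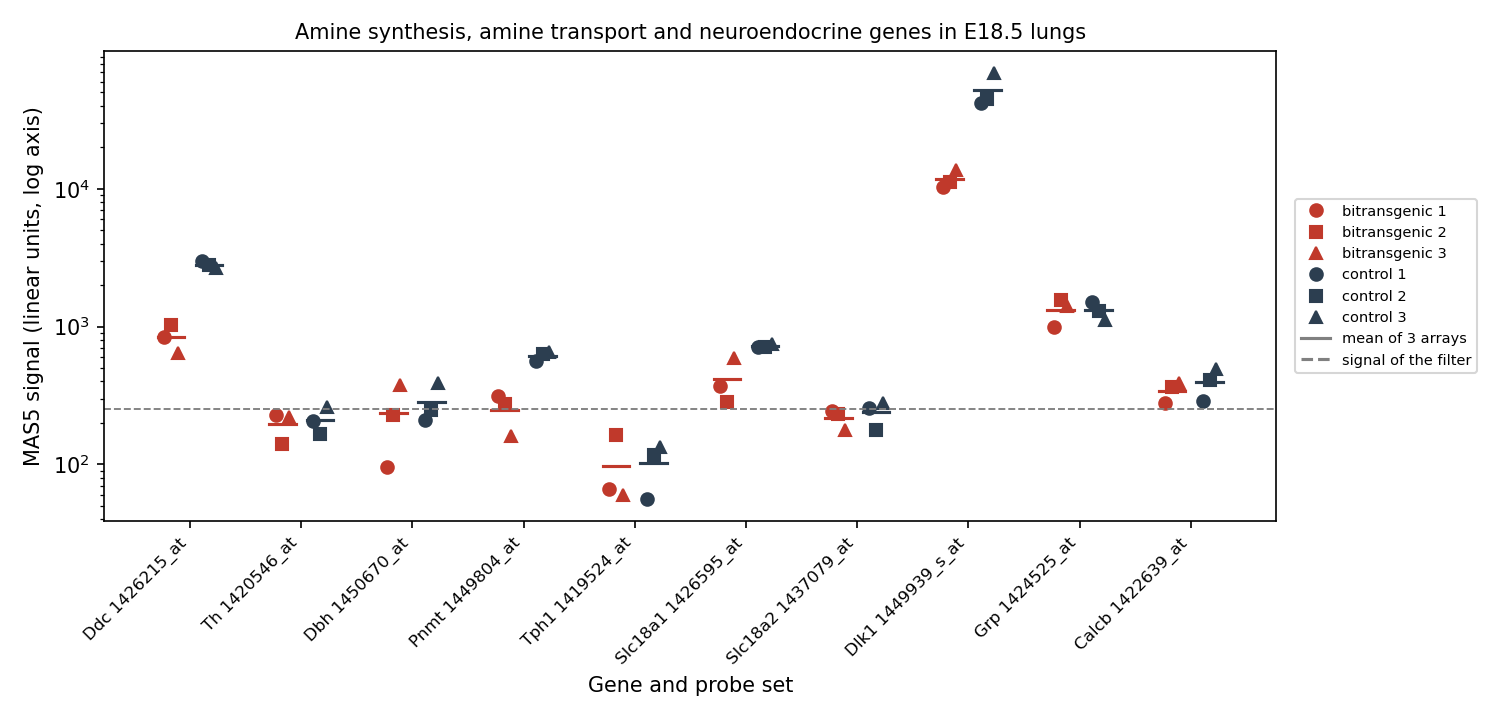
Signal of genes of amine synthesis and transport and of neuroendocrine markers on the 6 E18.5 arrays (log axis, MAS5 units), with bitransgenic lungs left of control lungs and a bar at the mean of 3. Ddc, Pnmt, Slc18a1 and Dlk1 have all bitransgenic values below all control values, while those of Th, Dbh, Tph1, Slc18a2, Grp and Calcb overlap.

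Peptide genes of neuroendocrine cells and airway nerves showed no called change. Grp, which encodes gastrin-releasing peptide, read 994, 1569 and 1420 in bitransgenic lungs, against 1504, 1305 and 1124 in control lungs, a log2 change of 0.0022. Calcb, a paralogue of Calca that encodes a related peptide, read 279, 363 and 389 in bitransgenic lungs, against 291, 412 and 492 in control lungs, a log2 change of -0.16. Of the remaining fixed neuroendocrine markers, Syp averaged 229 and 249 and Resp18 averaged 15.8 and 17.3 in bitransgenic and control lungs, both below the filter. Resp18 thus lay at the low end of the array in both groups.

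Across the 10 neural lists together, 150 genes besides the members were listed, 139 were on the E18.5 array and 67 were above the filter. Of the 67, 0 rose and 2 fell, namely Dlk1 and Ddc, and 10 had an unadjusted p under 0.05, where 9.67% of all genes did. The groups did not overlap in 5 upwards and 9 downwards, where 8.86% and 7.56% of all genes did so (16.4% in both directions). Their median log2 change was -0.0081, beside 0.014 for all genes. Array weights called 11 of the list genes, and a fit holding the Actb ratio called Dlk1 alone.

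Neuronal structure and transmission genes went in both directions without passing. None of 10 cytoskeletal genes passed, with Mapt (tau), Tubb2b and Dclk1 (doublecortin-like kinase) at log2 changes of -0.53, -0.39 and 0.38. All 4 Mapt probe sets above the filter were negative, and for 2 of them the groups did not overlap. Every Dclk1 probe set above the filter was positive, from 0.21 to 0.55, and for some of them the groups did not overlap. None of 10 synaptic vesicle genes passed either, and Stx1a, Cplx1 and Sncb, which encode syntaxin 1A, a complexin and beta-synuclein, had 0.43, -0.14 and 0.13. Stx1a was higher on all 3 bitransgenic arrays at its brightest probe set (limma adjusted p = 0.314). At its other probe set above the filter the groups overlapped and control 3 was the highest array. The log2 change there was 0.45 (limma adjusted p = 0.72). Of 7 neuronal RNA-binding genes 0 passed, and 6 had negative changes, among them the splicing regulators Nova2 and Nova1 and Celf5 with -0.31, -0.21 and -0.28.

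Glial, crest and guidance genes gave no call. In the glia list of 5 genes above the filter, Fabp7, a fatty acid-binding protein of glial precursors, read 811, 827 and 1108 in bitransgenic lungs, against 653, 596 and 349 in control lungs. Its groups did not overlap, at a log2 change of 0.72 (limma adjusted p = 0.344). The opposite sign was seen for the glial and crest regulator Sox10, at -0.47 (limma adjusted p = 0.534), and for the myelin gene Pmp22, at -0.40. The 4 autonomic genes above the filter included Gfra2, Gfra1 and Ednrb, receptors for neurturin, GDNF and endothelin, at -0.24, 0.17 and -0.095. Among 14 neurotrophic and guidance genes above the filter 0 passed. Gdnf, which encodes the ligand that Gfra1 binds, was left out of these 14 because its mean over the 6 arrays lay below the filter. It read 306, 437 and 484 in bitransgenic lungs, against 59.2, 61.8 and 77.7 in control lungs. Every bitransgenic value lay well above every control, with the control values under the added pseudocount. In the fit with no filter, Gdnf had the largest positive change of the neural list genes, 1.68 on the log2 scale (SE 0.24, limma adjusted p = 0.0504, n = 3 per group), just short of the threshold. The adhesion molecule gene Ncam1, which neuroendocrine cells and nerves share, read 1327, 1165 and 2024 in bitransgenic lungs, against 889, 790 and 846 in control lungs. Every bitransgenic value lay above every control, and the log2 change was 0.74 (limma adjusted p = 0.246). Nrp1, a semaphorin and VEGF receptor gene, and Sema3c had -0.48 and 0.29. All 4 Nrp1 probe sets had bitransgenic values below the controls, with changes from -0.52 to -0.25, and none passed.

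Lists of peptide processing and neuropeptides held few genes above the filter. All 4 granule and processing genes had positive changes between 0.12 and 0.29 and 0 passed, among them Pam, Ptprn2 and Cpe, which encode an amidating enzyme, a granule phosphatase-like protein and carboxypeptidase E. The neuropeptide genes Nmb, Penk and Npy had log2 changes of -0.38, 0.11 and 0.041, and none of the 3 passed. Nes, an intermediate filament gene of progenitors, was the 1 of 13 neural progenitor genes above the filter and had -0.16.

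Markers of other tissues were set beside these values. None of 12 lung epithelium genes passed, although 4 had an unadjusted p under 0.05 and groups that did not overlap, 3 upwards and 1 downwards. Sftpb, a surfactant protein gene of type II cells, read 4204, 4635 and 5665 in bitransgenic lungs, against 11620, 14700 and 42050 in control lungs. That was a log2 change of -1.99 (SE 0.39, limma adjusted p = 0.0822, n = 3 per group). Foxa1, a transcription factor gene of airway epithelium, read 22450, 23950 and 23060 in bitransgenic lungs, against 15730, 13650 and 9838 in control lungs, a log2 change of 0.85 (limma adjusted p = 0.0822). Epcam and Foxa2 also lay above all controls, with 0.63 and 0.29 (limma adjusted p = 0.393 and 0.494). The summed signal of the list, of which Sftpc was a large share, was 172000 to 196600 in bitransgenic and 179300 to 201500 in control lungs. These lung epithelium genes and Gdnf fall outside the rule for naming and were picked with their values in view. All 6 endothelial genes had negative changes with none passing, and their summed signal was 36400 to 40530 in bitransgenic and 47980 to 62830 in control lungs. Blood genes summed to 28820 to 31880 in bitransgenic and 32100 to 36780 in control lungs, and the chromaffin genes Pnmt, Dbh, Th, Slc18a1 and Chgb to 1061 to 1587 in bitransgenic and 1844 to 2235 in control lungs. Of these chromaffin genes only Pnmt and Slc18a1, given above, were above the filter. The groups overlapped for Dbh, Th and Chgb, and Chgb averaged 157 in bitransgenic and 171 in control lungs. In the heart muscle list 1 of 5 genes, Myh7, was higher, with a summed signal of 42570 to 61890 in bitransgenic and 33880 to 60580 in control lungs. Of 10 mesenchyme and cartilage genes 0 passed, with sums of 107900 to 119600 in bitransgenic and 122200 to 140300 in control lungs, and of 2 thymus, thyroid and pharynx genes 0 passed, with sums of 4576 to 5202 in bitransgenic and 6153 to 6983 in control lungs. The part of these tissues in the falls of Ddc and Dlk1 was not tested.

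The genes whose profile over the 6 E18.5 arrays was most like that of a member were found from the root mean square distance between z-scored log2 values. Gdf11 and Ube2o were nearest to Uchl1, at 0.029 and 0.059, where the median distance of all genes was 1.18. Mgll and Myl4 were nearest to Stmn2, at 0.094 and 0.11, and Myl7 and Cdk5r1 to Gap43, at 0.12 and 0.22. Each member was read at its brightest probe set, which for Stmn2 was 1423281_at. The other Stmn2 probe set, with its different change, was not searched. The distances were the smallest among 12625 genes over only 6 arrays, and the names describe these arrays alone.

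At E11.5 the signals of Gap43 and Chga were over 2-fold higher in trachea than in lung, and those of Uchl1 were close. A probe set was counted as apart when its ratio on the log2 scale, with a pseudocount of 84.3 added to each signal, exceeded 2-fold and the brighter of its signals lay over 543, the table's median. Of the 11 member probe sets 6 passed the filter, at a signal of about 305, and 2 of the 6 were apart, both towards trachea, with 4 of the 6 on the trachea side by any amount. Of all probe sets 48.7% were on that side. In all, 3.09% of 7453 probe sets were apart, 1.15% towards lung and 1.93% towards trachea. The members were chosen with earlier results of these data known, so these shares are a description only. With 1 array per tissue there was no replicate and no test, so the ratios describe these samples alone. The tissues matched their labels, with Sftpc at 1503 in lung and 257 in trachea and Sox2, a gene of proximal airway epithelium, at 1016 in lung and 4260 in trachea.

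Gap43 read 693 in lung and 1703 in trachea, a log2 ratio of -1.20 for lung over trachea. Its probe set name carries the suffix of sets that can match more than 1 transcript. With a pseudocount 4 times as large the ratio was -0.99 and Gap43 was no longer apart.

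Chga read 285 in lung and 661 in trachea on probe set 92422_at, a log2 ratio of -1.01 that lay just past the 2-fold line. With the larger pseudocount it was -0.68, and with the filter at the 60th percentile the probe set was left out. The other Chga probe set, 162192_f_at, read 50.2 in lung and 24.6 in trachea, both under the added pseudocount, and gave no usable ratio. Because Chga was 1 of the 2 members apart, its promoter window from RefSeq (GRCm38.p6, chr12:102554691-102554990, plus strand, 250 bases before to 50 after the gene start) is shown, with capitals on the match to the core of the cAMP response element, TGACGT, that was searched on both strands.
Chga: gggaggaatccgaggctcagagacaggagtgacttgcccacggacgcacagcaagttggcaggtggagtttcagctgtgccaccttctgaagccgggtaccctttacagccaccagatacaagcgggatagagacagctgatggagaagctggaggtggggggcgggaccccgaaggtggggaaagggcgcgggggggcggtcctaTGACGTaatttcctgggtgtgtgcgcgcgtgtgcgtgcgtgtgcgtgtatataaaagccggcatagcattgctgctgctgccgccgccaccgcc
The match began 44 bases before the annotated start. Of 5 member genes with a promoter in the table, Chga was the 1 that held it, as did 7.51% of all 32851 promoters of that length. The match is a description of the letters, not a site shown to be bound.

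Stmn2 had 3 probe sets at E11.5 that did not give 1 direction. Probe set 95669_g_at read 580 in lung and 1012 in trachea, a log2 ratio of -0.72, and 95670_at read 175 in lung and 484 in trachea, a log2 ratio of -1.13, with a mean just under the filter. The third, 95668_at, was designed from the same source sequence as 95669_g_at, yet read 248 in lung and 121 in trachea, a log2 ratio of 0.70. The trachea was thus higher on 2 of the 3 probe sets.

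Tubb3 was represented by 2 probe sets of the kind that can match several members of a gene family. On 160462_f_at it read 8097 in lung and 7375 in trachea, a log2 ratio of 0.13, and on 161612_f_at it read 195 in lung and 501 in trachea, a log2 ratio of -1.06. The second of these exceeded 2-fold, but its higher signal lay below the median of the table. Beta-tubulins are close in sequence, so which tubulin RNA either probe set measured is uncertain.

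Uchl1 read 2251 in lung and 2045 in trachea, a log2 ratio of 0.13. Nefl read 181 in lung and 248 in trachea, a log2 ratio of -0.32, and Elavl3 read 91.8 in lung and 55.0 in trachea, a log2 ratio of 0.34, both below the filter. For Elavl3 the signals in both tissues were close to or under the pseudocount, so its ratio carries little.

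**Figure D3:**
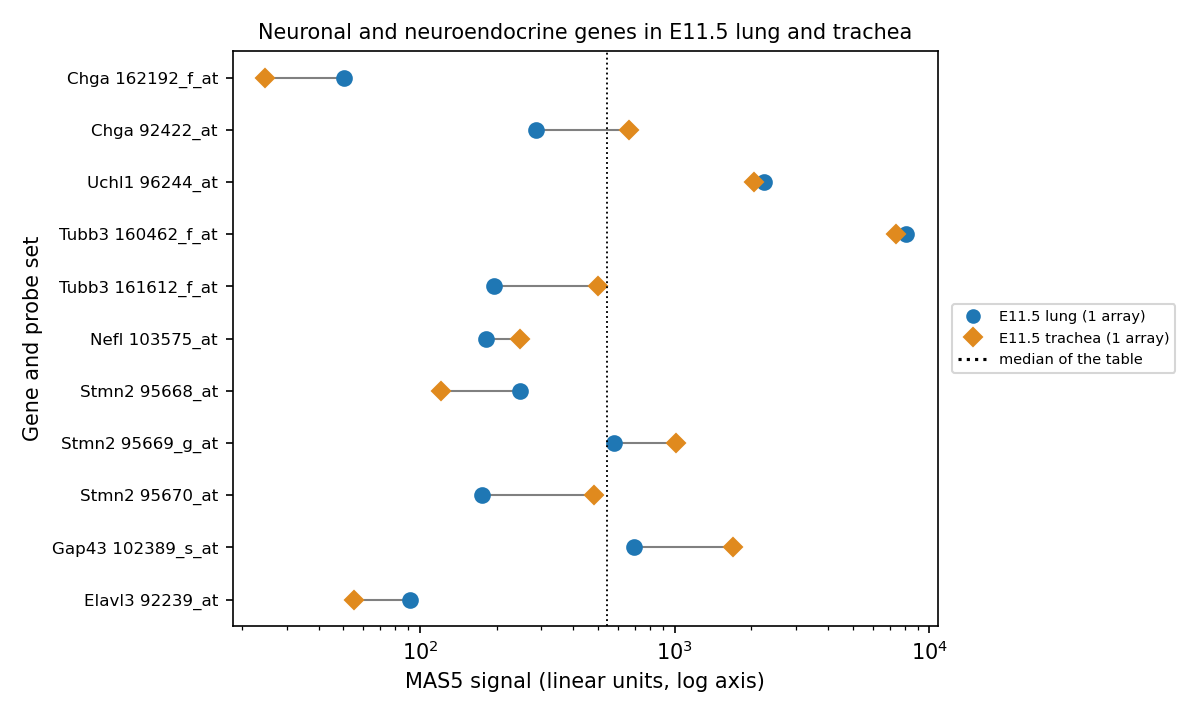
Signal of the 11 member probe sets on the E11.5 lung array (circles) and trachea array (diamonds), on a log axis in MAS5 units, with a dotted line at the table's median of 543. Gap43, Chga 92422_at, Tubb3 161612_f_at Nefl and 2 of 3 Stmn2 probe sets lie further right in trachea, while Uchl1 and Tubb3 160462_f_at are nearly level.

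The E18.5 and E11.5 arrays carry different probe sets, so signals were not compared between the stages. Chga and Tubb3 lay below the filter at E18.5 and had a probe set above it at E11.5, while Uchl1, Stmn2 and Gap43 were above it at both stages and Nefl and Elavl3 at neither.

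Genes of nerve, crest and glia around the members were more often on the trachea side at E11.5. Of 104 neural list genes on the array 47 passed the filter, and 11 of the 47 were apart, 3 towards lung and 8 towards trachea, where 3.07% of 5699 genes were apart, 1.05% towards lung and 2.02% towards trachea. The trachea signal was higher by any amount in 32 of the 47, where 50.2% of all genes had a higher trachea signal. Their median log2 ratio was -0.25, beside -0.0016 for all genes. The lists were chosen with earlier results of these data known, so the shares and medians are a description and not a test. The count apart fell to 7 when the pseudocount was raised 4 times and to 4 with the filter at the 60th percentile.

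Isl1 and Fabp7, of the autonomic and glia lists, had the largest single ratios towards trachea among the 47 neural genes, while the medians of their lists were smaller than those of the neuropeptide, granule and vesicle lists. Isl1, a transcription factor of autonomic and sensory neurons that pharyngeal and splanchnic mesoderm also makes, read 286 in lung and 1404 in trachea, a log2 ratio of -2.01. Fabp7 read 242 in lung and 1307 in trachea, a log2 ratio of -2.09. Both were over 4-fold on the signal plus pseudocount scale. Of 6 autonomic genes above the filter 1 was apart, with a median of -0.39, and the GDNF family receptor genes Gfra1 and Gfra2 were not apart, Gfra1 with 467 in lung and 1017 in trachea and Gfra2 with a log2 ratio of -0.47. Of 6 glial genes 1 was apart, with a median of -0.35, and Sox10 and Erbb3, a neuregulin receptor gene of Schwann cell precursors, had -0.51 and -0.36.

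Genes of vesicle release showed the same side in 8 of 9 cases. Cplx1 read 368 in lung and 1055 in trachea, and Rab3a, a vesicle GTPase, read 375 in lung and 1056 in trachea, log2 ratios of -1.33 and -1.31. Stx1a followed at -0.98, and the list's median was -0.63 with 2 of 9 apart. Among 3 granule genes, with a median of -0.64, 1 was apart, Cadps, an exocytosis factor, at 249 in lung and 913 in trachea, while Cpe and Ptprn had -0.64 and -0.097. The probe sets read for Cadps and Cpe are of the kind that can match several members of a gene family. The other Cadps probe set lay below the filter and was not apart, with a log2 ratio of -0.60. Of 2 neuropeptide genes above the filter, with a median of -0.65, Gal (galanin) was apart, at 1858 in lung and 3855 in trachea, a log2 ratio of -1.02, and Penk had -0.28. Celf4, the 1 RNA-binding gene above the filter, had -0.33.

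The neuronal cytoskeleton list was split between the tissues. Dcx, which encodes the microtubule protein doublecortin of migrating neurons, read 1970 in lung and 627 in trachea, a log2 ratio of 1.53. Dpysl3, a collapsin response mediator, went the other way, with 545 in lung and 1470 in trachea, a log2 ratio of -1.30, and its relative Crmp1 had -0.65. The list's median was 0.073, with 3 of 6 genes on each side. Nefm and Ina, the medium neurofilament chain and alpha-internexin that assemble with Nefl, were below the filter at 57.0 and 63.0 in lung and 375 and 410 in trachea. Nefh, a further neurofilament gene below the filter, was nearly level, at 204 in lung and 199 in trachea. Other list genes below the filter lay on either side, such as Map1b at 133 in lung and 33.9 in trachea. Map2 read 29.6 in lung and 151 in trachea. These genes fall outside the rule for naming and were picked with their values in view.

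Neuroendocrine, guidance and progenitor lists also had medians on the lung side. Of 4 neuroendocrine genes above the filter 1 was apart, Cxcl13, a chemokine gene, at 1342 in lung and 524 in trachea, a log2 ratio of 1.23. Dlk1 read 13450 in lung and 8718 in trachea, a log2 ratio of 0.62, and Insm1, a transcription factor of neuroendocrine and neuronal precursors, had -0.35. The median of the list was 0.24. Among 8 neurotrophic and guidance genes 2 were apart, Sema3a, a repellent for growing axons, at 1174 in lung and 291 in trachea, and Nrp1, which encodes its receptor, at 3367 in lung and 8011 in trachea. Their log2 ratios were 1.75 and -1.23, that of Ncam1 was -0.91 at its brightest probe set, and the list's median was 0.027. A further Ncam1 probe set above the filter was nearly level, at 745 in lung and 755 in trachea. Of 2 progenitor genes above the filter 0 were apart, with Sox3 and Nes at 0.27 and 0.12.

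**Figure D4:**
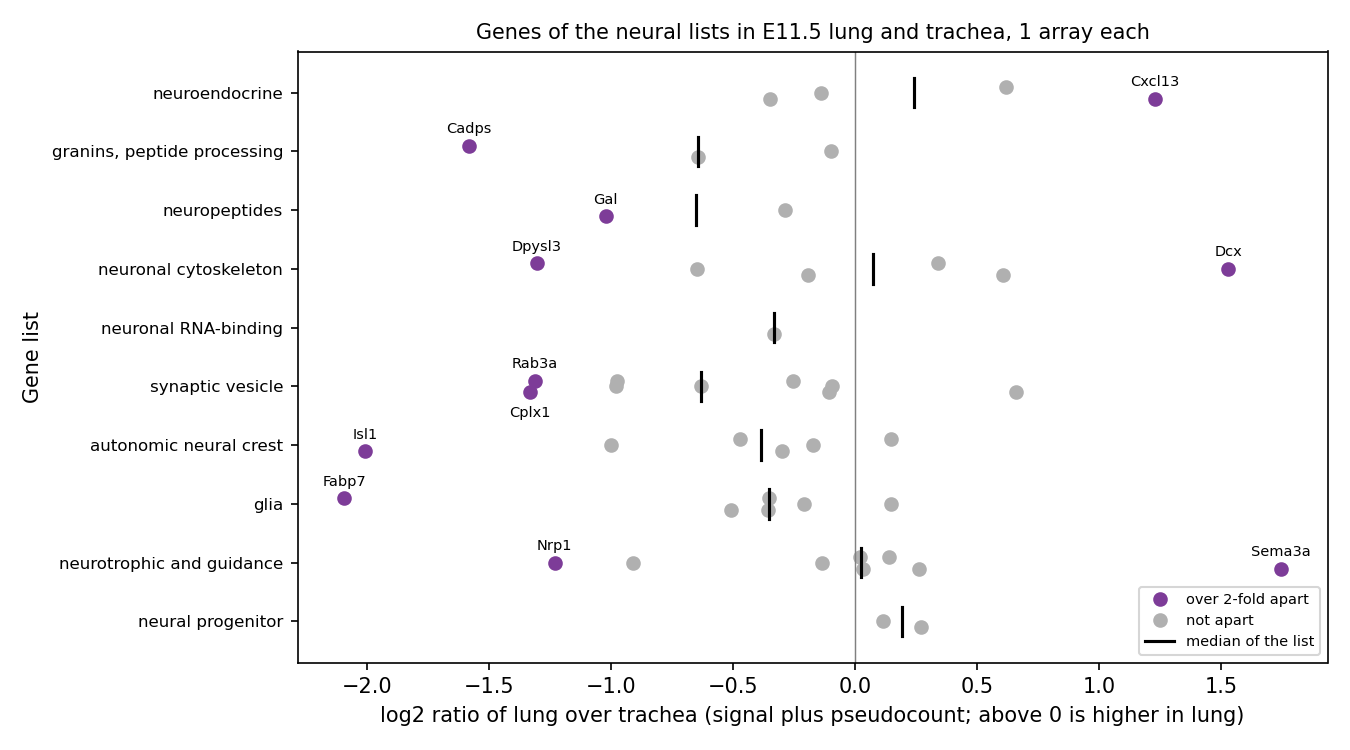
The log2 ratio of lung over trachea at E11.5 for each neural list gene above the filter, 1 point per gene, with genes over 2-fold apart named and a black bar at the median of each list. The 3 named genes right of 0 were higher in lung and the 8 left of 0 were higher in trachea.

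Other tissues in the E11.5 samples were measured beside these ratios. The neural tube genes Sox1, Neurog1 and Neurog2 read 81.8, 76.3 and 68.9 in lung and 117, 66.4 and 45.2 in trachea, about the pseudocount or below it in most cases. Of the other progenitor list genes below the filter, Pax3 read 66.7 in lung and 198 in trachea. Pax6 read 179 in lung and 178 in trachea, and Hes5 101 in lung and 131 in trachea. Sox3 and Nes, given above, passed the filter, and the rest of these genes fall outside the rule for naming. Of 7 mesenchyme and cartilage genes above the filter 1 was apart towards lung and 2 towards trachea, with a median log2 ratio of -0.29. The genes towards trachea were Tnc, a matrix protein gene, at 253 in lung and 2724 in trachea, and Twist1, a mesenchymal transcription factor gene, at 228 in lung and 2353 in trachea. Their log2 ratios of -3.06 and -2.97 were larger than that of any neural list gene above the filter, and their part in the trachea side of the neural genes was not tested. Foxf1, a transcription factor gene of lung mesenchyme, was the one towards lung, at 1969 in lung and 793 in trachea. The 3 were picked with their values in view, and the list summed to 31320 in lung and 40220 in trachea. Of 8 epithelial genes 1 was apart towards each side, with a median of 0.36. None of 3 heart muscle, 6 endothelial, 4 blood, 2 chromaffin and 1 pharyngeal organ genes was apart, with medians of -0.68, -0.15, -0.11, -0.018 and 0.27. How much nerve, ganglion, oesophagus or pharyngeal tissue each dissection carried was not tested.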

How the data were processed

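The authors deposited 1 MAS5 signal per probe set and array, a linear intensity; MAS5 is named without a version in the submitters' processing notes, and total RNA was biotin-labelled for Affymetrix arrays per the labels. All arrays had a trimmed mean of 1500. The 64 control probe sets of the E18.5 table and the 66 of the E11.5 table were dropped. Signals were taken as log2 after adding the 20th percentile of each table, 86.4 at E18.5 and 84.3 at E11.5, which compresses ratios of dim genes. Probe sets with a mean below the 40th percentile were left out. The E18.5 groups were compared by limma 3.58.1 (lmFit, eBayes with trend) in R 4.3.3 over all 27022 remaining probe sets, two-sided, with Benjamini-Hochberg adjustment and a threshold of 0.05. Exact permutation of 3 against 3 arrays allows no p under 0.1. List genes were read at their brightest probe set. The E11.5 tissues had 1 array each and no test. Fits were tested on simulated data.

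Of the probe sets on the E18.5 array 34945 had 1 gene symbol, 932 several and 9160 none, and for the E11.5 table these were 10833, 396 and 1193. All 8 member genes were found in the RefSeq table (GRCm38.p6) and 5 had a promoter entry. The members and lists were chosen with earlier results of these data known. The naming rule took all member probe sets, up to 3 genes of each neural list with the smallest p at E18.5 or the largest ratio at E11.5, and the 2 genes most like each member; Grp, Calcb, Syp, Resp18 and the amine genes are fixed list members given beyond it, and other exceptions are named in the text. Alternatives covered scaling, pseudocount, filter, unit of the fit, variance model, array weights, covariates and arrays left out. Figures were drawn with matplotlib 3.10.9.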

Additional observations from a re-analysis of the deposited data

How the results depend on the processing

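No member probe set passed at E18.5 under any alternative except array weights, which called 1, Stmn2 1423281_at. The neural list genes called were 2 in every other alternative, 11 with array weights and 1 in the fit holding the Actb ratio, where Ddc did not pass at -1.60 (limma adjusted p = 0.159). Of all probe sets 120 were called, 63 with no filter, 54 without the intensity trend, 3034 with array weights, 20 with the Actb ratio and 236 without both arrays numbered 3, and 30 to 104 when 1 array was left out, the count being 30 without control 2 and 41, 48 and 55 when bitransgenic 1, 2 or 3 was dropped. The higher and lower calls were 44 and 76, and 23 and 61 with median centring. At E11.5 the members apart were 2, 0 after raising the pseudocount 4 times and 1 with the filter at the 60th percentile, and the list genes apart were 11, 7 and 4 in the same settings and 20 at a fold of 1.5. The causes were not tested. The filter at the 60th percentile also left fewer list genes at E11.5, 21 in place of 47.

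Signs turned for some changes, none of which passed, and several of these estimates were unstable. Over all alternatives Nes ran from -0.82 to 0.89, Npy from -0.38 to 0.55 and Uchl1 from -0.11 to 0.53. With array weights the log2 change was 0.038 for Stmn2 1423280_at, -0.097 for Cpe, -0.028 for Penk, -0.031 for Npy, -0.065 for Sncb and 0.89 for Nes. With the Actb ratio it was 0.26 for Stmn2 1423280_at, -0.13 for Ptprn2, -0.22 for Cpe, -0.11 for Penk, 0.18 for Nova1, 0.019 for Cplx1, -0.026 for Sema3c and 0.51 for Nes. Without both arrays numbered 3 it was 0.027 for Stmn2 1423280_at, -0.036 for Cpe, -0.067 for Penk and 0.15 for Nes. With 1 array left out the ranges were -0.24 to 0.20 for Stmn2 1423280_at, -0.11 to 0.35 for Uchl1, -0.10 to 0.27 for Cpe, -0.38 to 0.27 for Npy and -0.82 to 0.23 for Nes. No paired analysis was possible because the sample titles number the E18.5 arrays without repeats and no label ties an array of 1 group to an array of the other. The number of arrays and the weak signals of Chga, Tubb3, Nefl and Elavl3 limit the precision.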
